A study of Homo sapiens with 17 samples.

Results

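Replication-dependent histone genes encode the bulk histones of chromatin, and they were taken here as the protein-coding genes with the symbols H1-1 to H1-6 or with H2AC, H2BC, H3C or H4C followed by a number. The RefSeq gene table (GRCh38.p14) held 70 such genes among 20037 protein-coding genes: 6 H1, 17 H2A, 19 H2B, 13 H3 and 15 H4 genes. These genes are transcribed in S phase, when new DNA must be packaged. Their short transcripts lack introns and end in a stem-loop in place of a poly(A) tail, which SLBP binds. Most of the genes sit in clusters that gather NPAT, the coactivator of histone transcription, in a nuclear structure called the histone locus body, and H3K27ac is a mark of active promoters and enhancers, whereas H3K4me1 is a mark of enhancers and of the flanks of promoters.

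The data were CUT&Tag libraries, in which an antibody tethers the Tn5 transposase to chromatin, from H1 cells, an established line of human pluripotent stem cells. Antibodies against H3K4me1 and H3K27ac were each used in 2 libraries from cells with the control shRNA against luciferase (shLUC) and in 4 libraries from cells with an shRNA against HNRNPU, a nuclear matrix protein that binds RNA (2 with shHNRNPU#1 and 2 with shHNRNPU#2). The HNRNPU antibody was used in 2 libraries from untransfected cells, and the antibody POLIIS2P, read from its name as RNA polymerase II phosphorylated at serine 2 of its repeats, in 1 shHNRNPU#1 and 2 shLUC libraries. The shRNAs were carried by virus, and the transduced cells were selected with puromycin. Each library was given as a list of peak summits (34649 to 214333 per list) with a score each, and the value used here was the percentile of the highest summit within a gene plus 1000 bp each side among all summits of the same list, with 0 for a gene without a summit. No list reports reads, so the depth is unknown, a percentile of 0 means that no peak passed the caller's threshold, and HNRNPU protein or RNA after the knockdown was not analysed here. Nothing in the labels says whether repeats came from separate cultures, so p-values measure the spread between these libraries, which may be technical.

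The titles and the file names of the 4 shLUC histone libraries named opposite antibodies. The 2 lists titled H3K4me1 shLUC had a summit at 50 and 53 of the 70 histone genes and were 62449 and 90914 summits long. The H3K27ac lists of shHNRNPU cells had a summit at 51, 51, 51 and 55 of the genes and were 40487 to 85142 summits long. The 2 lists titled H3K27ac shLUC had a summit at 27 and 27 of the genes and were 179137 and 181357 summits long, beside 12, 21, 19 and 28 genes and 147145 to 214333 summits in the H3K4me1 lists of shHNRNPU cells. Among 8 marker genes of other lineages (such as PAX6, SOX17 and COL1A1), 8 had a summit in all H3K4me1 lists of shHNRNPU cells and 0 in all H3K27ac lists of those cells. The same count was 1 in both lists titled H3K4me1 shLUC and 8 in both lists titled H3K27ac shLUC. Each comparison with shLUC cells is therefore given as titled and with the 2 antibody names exchanged, and the levels of the marks are given from the shHNRNPU libraries, where titles and file names did not differ. Of 8 pluripotency markers, 5 had an H3K27ac summit in all 4 shHNRNPU lists, beside 52.0% of all protein-coding genes. These were NANOG, SOX2, LIN28B, SALL4 and ZFP42, whereas POU5F1, LIN28A and DPPA4 each lacked a summit in 1 list.

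The promoters of the histone genes are shown first, because the lists place summits at them. The table of RefSeq promoters (GRCh38.p14, 250 bases before to 50 after the start) held 64 of the 70 genes. The 150 bases before the start of the following 5 genes are printed, 1 of each family. Each had H3K27ac summits in all 4 shHNRNPU lists within the gene plus 1000 bp. For H3C1 these values (90.9, 98.4, 92.7 and 94.6) were the same as those of its neighbour H4C1. Within 1000 bp of its own start H3C1 had 32.5, 0, 35.6 and 83.0. Capitals mark matches to 3 motifs on either strand. The first is CCAAT, which reads ATTGG on the other strand. The next is the octamer ATTTGCAT, which reads ATGCAAAT on the other strand. The last is TATAAA, which reads TTTATA on the other strand, and both readings share bases in the match before the start of H2AC11.
H1-2 (chr6:26056471-26056620, minus strand): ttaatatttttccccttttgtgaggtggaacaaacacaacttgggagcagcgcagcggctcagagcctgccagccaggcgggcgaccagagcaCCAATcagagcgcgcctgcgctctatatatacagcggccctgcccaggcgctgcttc
H2AC11 (chr6:27132893-27133042, plus strand): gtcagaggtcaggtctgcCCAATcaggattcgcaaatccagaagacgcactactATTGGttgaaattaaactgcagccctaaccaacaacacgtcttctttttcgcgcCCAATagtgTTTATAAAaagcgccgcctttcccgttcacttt
H2BC12 (chr6:27146859-27147008, minus strand): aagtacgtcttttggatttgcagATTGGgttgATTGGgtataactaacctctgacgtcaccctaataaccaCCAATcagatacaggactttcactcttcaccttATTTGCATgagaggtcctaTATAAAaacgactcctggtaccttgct
H3C1 (chr6:26020301-26020450, plus strand): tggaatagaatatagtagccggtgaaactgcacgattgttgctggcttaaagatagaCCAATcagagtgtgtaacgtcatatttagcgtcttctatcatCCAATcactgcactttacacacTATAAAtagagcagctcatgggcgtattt
H4C9 (chr6:27139132-27139281, plus strand): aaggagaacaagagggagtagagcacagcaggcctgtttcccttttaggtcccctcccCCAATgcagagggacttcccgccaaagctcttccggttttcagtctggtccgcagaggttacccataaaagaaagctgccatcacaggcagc
These stretches were chosen with the values of the genes known. Over the 300-base promoters, ATTTGCAT, the octamer that POU2F1 and related factors bind, was found on either strand in 26 of the 64 histone genes (40.6%) and in 1.70% of all 15843 promoters. Of the promoters with a match, 14 belonged to the 18 H2B genes and 11 to the 16 H2A genes, whereas 1 of 11 H3 promoters and none of the 6 H1 and 13 H4 promoters held it. CCAAT was in every H1, H2A, H2B and H3 promoter examined but in 3 of 13 H4 promoters, which gave 84.4% of the histone genes beside 36.4% of all promoters. TATAAA was in 42 histone promoters (65.6%) and in 9.63% of all promoters. The median over genes of the mean H3K27ac percentile in shHNRNPU cells was 66.4 for the 26 genes with ATTTGCAT and 59.7 for the 38 without it. It was 60.7 for the 54 genes with CCAAT and 78.2 for the 10 without it, all of them H4 genes, and 66.4 for the 42 genes with TATAAA and 50.7 for the 22 without it. Each of these sets began at 0 and reached 96.3 or 98.9. A match describes these letters only.

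H3K27ac was found at the starts of most histone genes, and H3K4me1 at few. A summit within 1000 bp of the start was present at 70.0% ± 4.81 (SD, n = 4) of the histone genes in the H3K27ac lists of shHNRNPU cells, and at 40.3% ± 7.62 of all protein-coding genes. The start was known only for genes in the promoter table, which held 15843 of the 20037 genes and lacked 6 of the 70 histone genes. For genes outside it, a summit within 1000 bp of either end was counted, here and in every start window below. A larger part of all genes than of the histone genes had this wider window. For H3K4me1 the same shares were 20.0% ± 7.82 of the histone genes and 58.7% ± 6.58 of all genes (SD, n = 4). With the whole gene plus 1000 bp, H3K27ac summits were at 74.3% ± 2.86 of the histone genes beside 67.5% ± 6.94 of all genes, and H3K4me1 summits at 28.6% ± 9.40 beside 81.4% ± 2.90. The histone genes were above all genes in each H3K27ac list and below them in each H3K4me1 list at the start, but histone genes are short (median 494 bp), so the whole-gene window of other genes gives them more room for a summit. Windows of neighbours overlap: the 70 windows merged into 40 blocks, and 27 to 30 of the genes with an H3K27ac summit in a list shared their highest summit with another histone gene. Of the merged blocks, 77.5% held an H3K27ac summit and 39.4% an H3K4me1 summit.

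**Figure D1:**
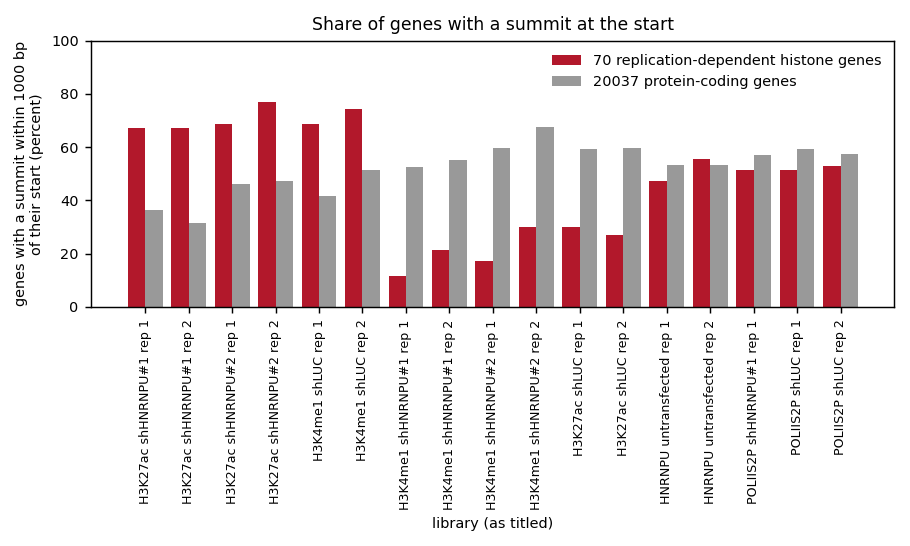
Bars give the percent of the 70 histone genes (red) and of all 20037 protein-coding genes (grey) with a summit within 1000 bp of their start, 1 pair of bars for each library as titled. Genes whose start was not known are counted with a summit within 1000 bp of either end. The red bars exceed the grey ones in the H3K27ac shHNRNPU lists and in the lists titled H3K4me1 shLUC, and lie below them in the H3K4me1 shHNRNPU lists and those titled H3K27ac shLUC.

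H3K27ac without H3K4me1 was found at a larger share of the histone genes than of all genes. Of the 47 histone genes with an H3K27ac summit in all 4 shHNRNPU lists, 21 (44.7%) had no H3K4me1 summit in any of the 4 H3K4me1 lists of those cells. Of all protein-coding genes with H3K27ac in the 4 lists, 1.17% (122 of 10423) had none. In the window around the start the shares were 58.5% (24 of 41 histone genes) and 6.28% of all genes. H4C5 was one such gene. Its H3K27ac percentiles were 95.7, 95.4, 98.6 and 95.3, and its H3K4me1 percentiles were 0 in all 4 lists.

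The difference between the marks was tested gene by gene within shHNRNPU cells, a comparison chosen after these values were seen. The test was limma over all genes on −log2 of the share of a list's summits that score at least as high as the gene's highest summit, so that a higher value means a rank nearer the top of the list. The p-values were adjusted over all genes by the Benjamini-Hochberg method, with a threshold of 0.05. Of 57 histone genes with any summit, 42 were higher in H3K27ac (16.0% of all 17961 genes tested were) and 2 were higher in H3K4me1 (39.1% of all genes were). The percentiles of the 4 H3K27ac and the 4 H3K4me1 lists did not overlap for 38 histone genes with H3K27ac above (13.2% of all genes) and for 1 with H3K4me1 above (34.3%). With the 20000 highest summits of each list, which puts long and short lists on an equal length, 23 of 47 histone genes were higher in H3K27ac (25.1% of all genes) and 0 in H3K4me1 (13.7%). With the shHNRNPU#1 libraries alone, 26 of 56 were higher in H3K27ac (9.02% of all genes) and 2 in H3K4me1 (28.8%).

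H1-1 and H4C15 were the 2 genes on the other side. H1-1 encodes a linker histone, the class that binds DNA between nucleosomes, and its H3K4me1 percentiles were 94.8, 95.5, 81.6 and 93.3, whereas its H3K27ac percentile was 0 in all 4 lists. The groups did not overlap, and the difference of -3.77 ± 0.49 passed the test (SE, limma, adjusted p = 4.46e-05; exact permutation p = 0.0286, the smallest that 4 against 4 libraries allow). H1-1 also had no summit in the HNRNPU and POLIIS2P lists. H4C15 had H3K4me1 percentiles of 84.4, 78.3, 81.4 and 95.9 and H3K27ac percentiles of 28.8, 0, 75.4 and 80.9, which overlapped (difference -1.75 ± 0.67, SE, limma adjusted p = 0.0391). RefSeq gives H4C15 a length of 16753 bp, and within 1000 bp of its start none of the 17 lists had a summit.

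The other H1 genes carried H3K27ac to different extents, apart from H1-6, the testis linker histone, which had no summit in any list. H1-2 had H3K27ac percentiles of 79.6, 94.0, 98.5 and 95.8 and, unlike most histone genes, strong H3K4me1 percentiles of 83.5, 83.2, 66.3 and 77.8 (difference 2.01 ± 0.69, SE, limma adjusted p = 0.0254). H1-4 had 63.7, 87.1, 98.1 and 98.6 in H3K27ac and 0, 50.4, 0 and 39.7 in H3K4me1, and these groups did not overlap (3.64 ± 0.88, SE, limma adjusted p = 0.00339). H1-3 had lower H3K27ac percentiles, of 20.8, 54.0, 75.5 and 84.3, with 33.4 as its single H3K4me1 percentile above 0. H1-5 varied widely between lists, with 2.6, 43.2, 83.0 and 30.3 in H3K27ac and 0 in each H3K4me1 list, and its difference of 0.97 ± 0.42 did not pass the test (SE, limma adjusted p = 0.0642).

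**Figure D2:**
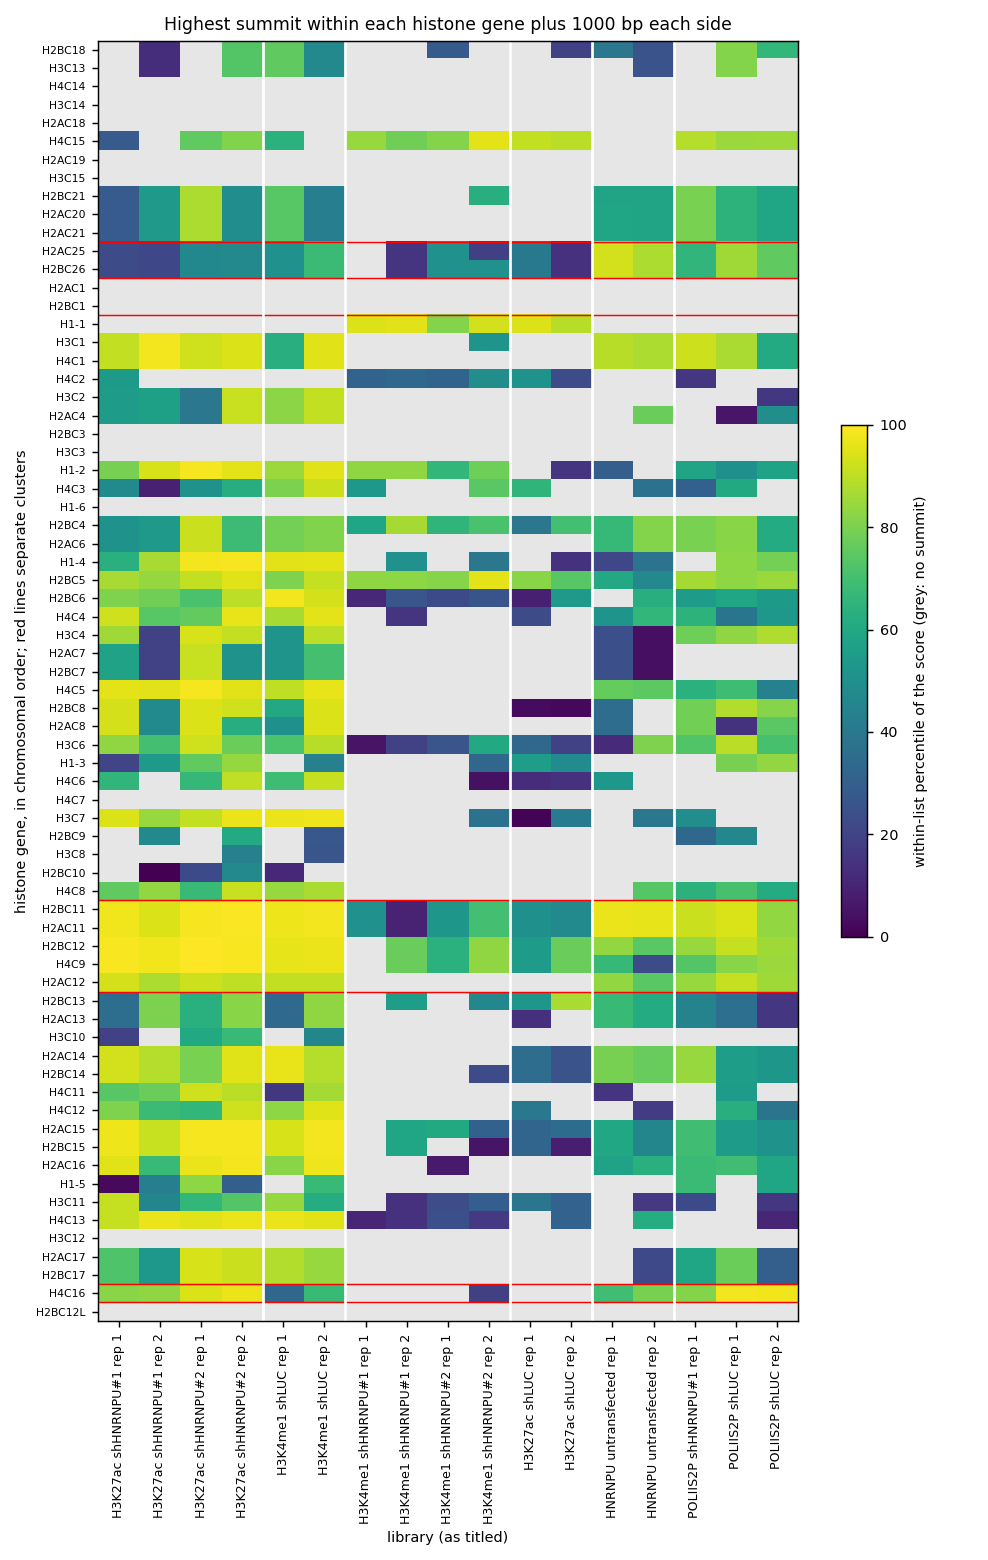
Each row is a histone gene in chromosomal order and each column a library as titled, and the colour gives the within-list percentile of the highest summit in the gene plus 1000 bp (grey where there was none). Red lines separate the chromosomal clusters. Columns of H3K27ac shHNRNPU and of the lists titled H3K4me1 shLUC are filled at most rows, and H1-1 is bright in the other 2 groups of histone columns instead.

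Genes chained at gaps of at most 200 kb formed 8 groups on chromosomes 1, 6, 12 and 21, and their levels differed. The highest H3K27ac was in the small cluster of 5 genes at chr6:27132316-27147562, with a median percentile of 97.6 ± 1.87 (SD over 4 shHNRNPU lists), followed by the single gene H4C16 at chr12:14770720-14771131 (89.3 ± 7.56) and the 16 genes at chr6:27807479-27893891 (80.9 ± 8.29). The largest cluster, 32 genes at chr6:26017032-26285534, had a median of 66.3 ± 14.4. The pair H2AC25 and H2BC26 at chr1:228457364-228458558 had 34.7 ± 14.1, and the 11 genes at chr1:149782689-149887965 had 12.3 ± 24.5, with a median of 0 in 3 of the 4 lists. The last 2 groups, H2AC1 with H2BC1 at chr6:25726063-25727345 and H2BC12L at chr21:43565182-43565648, had no summit in any list. Neighbouring groups with summits overlapped in the medians of their lists in this order, except that the cluster of 32 genes (50.7 to 81.0) lay above the pair H2AC25 and H2BC26 (21.7 to 46.9).

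**Figure D3:**
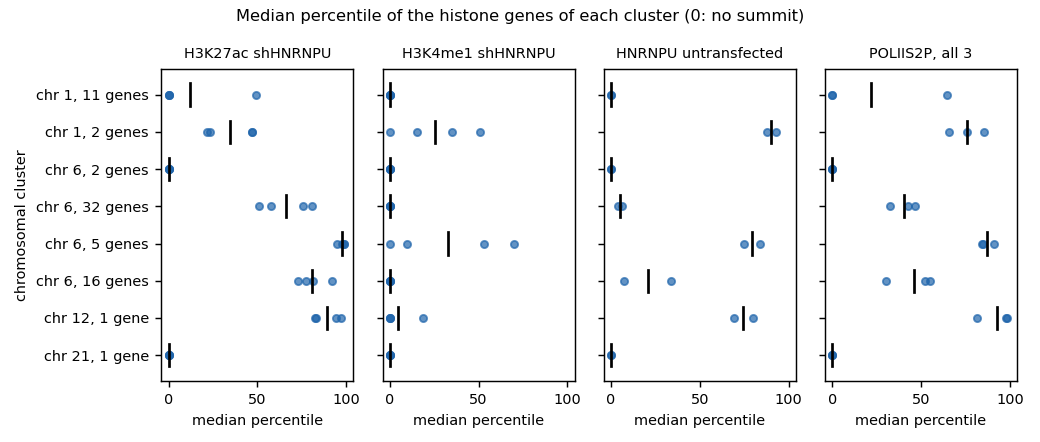
Points give the median percentile over the histone genes of each chromosomal cluster in each list, with 1 panel per antibody and lines at the means over lists. The cluster of 5 genes on chromosome 6 sits at 94.8 to 98.9 in H3K27ac, and the pair on chromosome 1 is higher in HNRNPU (87.6 and 93.0) than in H3K27ac (21.7 to 46.9).

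In the cluster of 5 genes, all 5 had summits in each H3K27ac, HNRNPU and POLIIS2P list. H4C9 and H2BC12 had the highest mean H3K27ac percentile of all histone genes (98.9; 99.1, 97.7, 99.7 and 98.9 in the lists), which they share because the RefSeq gene H2BC12 spans 8566 bp and its window holds the H4C9 summit. At its own start H2BC12 had 93.7, 87.8, 92.5 and 90.5, the same summits as H2AC12, which was the lowest of the cluster. H2BC11 and H2AC11, a divergent pair of an H2B and an H2A gene, had 97.9, 94.8, 98.6 and 99.4. In the cluster of 16 genes, H2AC15 and H2BC15 had the highest mean (96.6), with 97.5, 91.5, 98.8 and 98.5 in H2AC15, and H3C12 had no summit in any list. In the cluster of 32 genes, H4C5 was the highest by its mean and 5 genes had no H3K27ac summit: H1-1, the testis gene H1-6, H2BC3, H3C3 and H4C7.

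Of the 11 genes near 149.8 Mb on chromosome 1, H2BC21, H2AC20 and H2AC21 shared the highest mean H3K27ac percentile (54.8), with 28.5, 54.0, 87.8 and 49.0 in the lists. H4C14, H3C14, H2AC18, H2AC19 and H3C15 had no summit in any of the 17 lists. These genes lie in an inverted repeat. The 150 bases before the starts of H2AC18 and H2AC19 are printed because they are the same sequence moved by 1 base, with the same motifs in capitals as above.
H2AC18 (chr1:149842751-149842900, minus strand): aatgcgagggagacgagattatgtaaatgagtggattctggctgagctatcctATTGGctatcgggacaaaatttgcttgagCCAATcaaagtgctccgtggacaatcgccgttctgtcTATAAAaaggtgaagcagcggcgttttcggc
H2AC19 (chr1:149850911-149851060, plus strand): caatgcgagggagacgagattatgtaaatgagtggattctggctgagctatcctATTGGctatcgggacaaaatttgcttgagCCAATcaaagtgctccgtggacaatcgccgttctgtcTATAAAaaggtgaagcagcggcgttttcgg
The 2 promoters agreed at all 299 bases compared, those of H3C14 and H3C15 at all 296 bases after a move of 4, and those of H4C14 and H4C15 at all 300. The other 418 pairs of promoters within a family agreed at a median of 33.0% of bases, allowing moves of up to 20 bases, with the highest share of 98.3% between H4C11 and H4C12. How reads that match both copies were treated is not given in the sources used here, so a missing summit at these 6 genes, and the split of reads between H4C11 and H4C12, are uncertain. In all, 13 histone genes (18.6%) had no summit in any of the 17 lists, beside 8.63% of all protein-coding genes. Beside the 5 genes named above these were H2AC1, H2BC1, H2BC3, H3C3, H1-6, H4C7, H3C12 and H2BC12L.

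By family, H3K27ac was most frequent at H2A genes and least frequent at H3 genes. A summit in all 4 shHNRNPU lists was found at 14 of 17 H2A genes, 13 of 19 H2B genes, 10 of 15 H4 genes, 4 of 6 H1 genes and 6 of 13 H3 genes. HNRNPU summits in both lists were found at 11 H2A and 11 H2B genes, at 5 H4, 3 H3 and 1 H1 genes. POLIIS2P followed the order of HNRNPU, with summits in all 3 lists at 12 H2A, 12 H2B, 7 H4, 3 H3 and 1 H1 genes. H2A and H2B genes often form divergent pairs that share a window, so these counts are not independent.

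In the whole-gene window, which gives longer genes more room, HNRNPU summits were at smaller shares of the histone genes than of all genes. The lists had a summit at 36 and 42 of the 70 genes (55.7% ± 6.06, SD, n = 2, beside 70.1% of all genes). Within 1000 bp of the start the shares were 47.1% and 55.7% of the histone genes beside 53.5% and 53.4% of all genes, so 1 list lay below and 1 above. Among the genes with H3K27ac in all 4 lists, 30 of 47 histone genes (63.8%) and 87.2% of all genes had HNRNPU in both lists. The pooled list of 48095 HNRNPU intervals, each 400 bp wide, touched the windows of 47 histone genes (67.1%) and of 76.4% of all genes. The median HNRNPU percentile over the histone genes was 13.5 and 22.6 in the 2 lists, beside a mean of 58.1 over all genes, and in the start window it was 0 and 17.2 beside 22.9 and 22.0 over all genes.

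The histone genes with the highest HNRNPU percentiles were H2BC11 and H2AC11 (97.2 and 96.5 each) and H2AC25 with H2BC26 (93.0 and 87.6 each). H2AC25 and H2BC26 differed from the former pair in H3K27ac, at 23.4, 21.7, 46.8 and 46.9. H3C1 and H4C1, named here after their values were seen, followed with the same values of 89.1 and 87.6. Within 1000 bp of its start H3C1 had no HNRNPU summit in either list. H4C13, likewise named afterwards, had high H3K27ac percentiles of 91.2, 96.9, 95.0 and 96.9 but HNRNPU percentiles of 0 and 61.9.

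POLIIS2P marks elongating polymerase, which is known to gather towards the ends of long genes. Its summits were at 41 histone genes in the shHNRNPU#1 list and at 44 and 44 in the shLUC lists (61.4% ± 2.47, SD, n = 3, beside 73.7% ± 1.16 of all genes), and within 1000 bp of the start they were at 51.9% ± 0.825 beside 58.0% ± 1.27. Among the genes with H3K27ac in all 4 lists, 34 of 47 histone genes (72.3%) and 91.0% of all genes had POLIIS2P in all 3 lists. The median percentile over the histone genes was 46.9 in the shHNRNPU#1 list and 55.3 and 46.7 in the shLUC lists, and over all genes the mean of the medians was 76.2. In the start window the medians were 18.1, 10.3 and 15.9, beside a mean of 40.0 over all genes. A percentile of at least 90 was reached by 1 to 5 of the 70 histone genes per list and by 30.3% of all genes, and in the start window by 0 to 4 histone genes and 18.5% of all genes. In the whole-gene window H4C16 had the highest mean of the 3 lists (92.6), with 81.5 in the shHNRNPU#1 list and 98.3 and 97.9 in the shLUC lists. H2BC11 and H2AC11 followed with 92.1, 94.5 and 83.8. Within 1000 bp of its start H4C16 had 81.5 in the shHNRNPU#1 list and 0 in both shLUC lists. The values of H2BC11 and H2AC11 were the same in that window.

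The summits lay at different places around the starts. For H3K27ac, 153 summits within 1000 bp of the nearest histone gene start had a median position of 107 bp downstream, with 26.8% upstream of the start. HNRNPU summits (50 in 2 lists) had a median of -24.5 bp, just upstream, and 86.0% lay within 250 bp of the start. POLIIS2P summits (83 in 3 lists) had a median of 57 bp and H3K4me1 summits (45 in 4 lists) of -10 bp. Repeats of 1 site are counted in each list, so these are descriptions without a test.

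**Figure D4:**
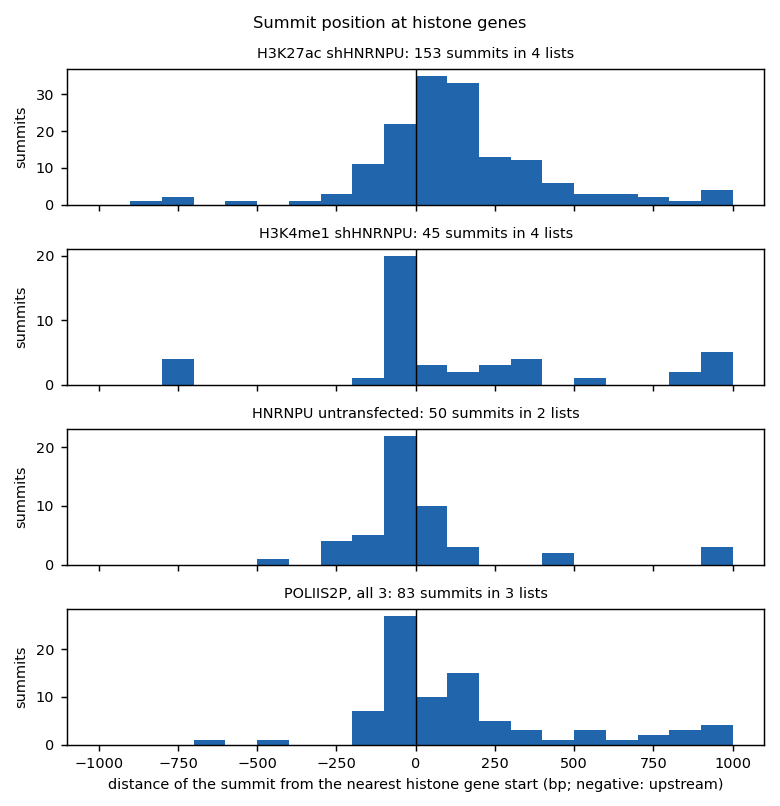
Histograms give the number of summits in bins of 100 bp by distance from the nearest histone gene start, 1 panel per antibody over the lists named in the panel. H3K27ac summits lie mostly downstream of the start (median 107 bp), and HNRNPU summits lie close to it (median -24.5 bp).

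Whether the marks at histone genes differed between shHNRNPU and shLUC cells depended on which antibody names of the shLUC libraries were used. As titled, 41 of 57 histone genes were lower in H3K4me1 in shHNRNPU cells (21.2% of all 17957 genes tested were) and 2 were higher (30.7%). In H3K27ac, 26 of 57 were higher (10.5% of all 17852 genes) and 1 was lower (33.2%). The H3K27ac calls fell from 27 to 4 without shLUC replicate 1 and to 4 without shLUC replicate 2, each time with 3 of 57 higher (3.67% and 3.65% of all genes) and 1 lower (21.7% and 21.6%). With the names exchanged, limma called 0 of 35 histone genes in H3K4me1 (0.00568% of all genes in each direction) and 0 of 56 in H3K27ac (0.00% of all genes in each direction). At an unadjusted p under 0.05 there were 4 histone genes in H3K4me1 (11.4%, beside 5.98% of all genes) and 3 in H3K27ac (5.36%, beside 6.02%). A value that does not depend on the names, the higher of both histone marks in each shRNA and repeat number, gave 0 calls in 57 by limma (0.00% of all 18161 genes in each direction), with 5 at an unadjusted p under 0.05 (8.77%, beside 7.10%).

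H3C7, H1-1 and H4C9, the called genes picked by the naming rule, are given under both sets of names. H3C7 had H3K4me1 percentiles of 0, 0, 0 and 37.7 in shHNRNPU lists and 97.2 and 97.3 in the lists titled H3K4me1 shLUC, a difference of -5.02 ± 0.48 (SE, limma, adjusted p = 1.03e-05). In the lists titled H3K27ac shLUC it had 1.1 and 41.6, and with the names exchanged the difference was -0.23 ± 0.28 (SE, limma, adjusted p = 0.966). H1-1 was at 94.8 and 89.2 in the lists titled H3K27ac shLUC and at 0 in both titled H3K4me1 shLUC. Its difference in H3K4me1 was 3.77 ± 0.62 as titled (SE, limma, adjusted p = 0.000433) and 0.03 ± 0.63 with the names exchanged (adjusted p = 0.999). With the 20000 highest summits the difference as titled was 0.85 and the call was lost (limma, adjusted p = 0.196). Its H3K27ac difference was -3.74 ± 0.43 as titled (SE, limma, adjusted p = 0.000892) and -0.56 with the 20000 highest summits (adjusted p = 0.183), and with the names exchanged it was not tested because all its H3K27ac percentiles were 0. H4C9 had 96.4 and 97.2 in the lists titled H3K4me1 shLUC and 55.3 and 77.0 in those titled H3K27ac shLUC. Its H3K27ac difference was 5.15 ± 0.86 as titled (SE, limma, adjusted p = 0.00301) and 1.82 ± 0.90 with the names exchanged (adjusted p = 0.835). The call as titled was lost without shLUC replicate 1 (4.67, limma adjusted p = 0.0801) and without shLUC replicate 2 (5.63, limma adjusted p = 0.0543).

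**Figure D5:**
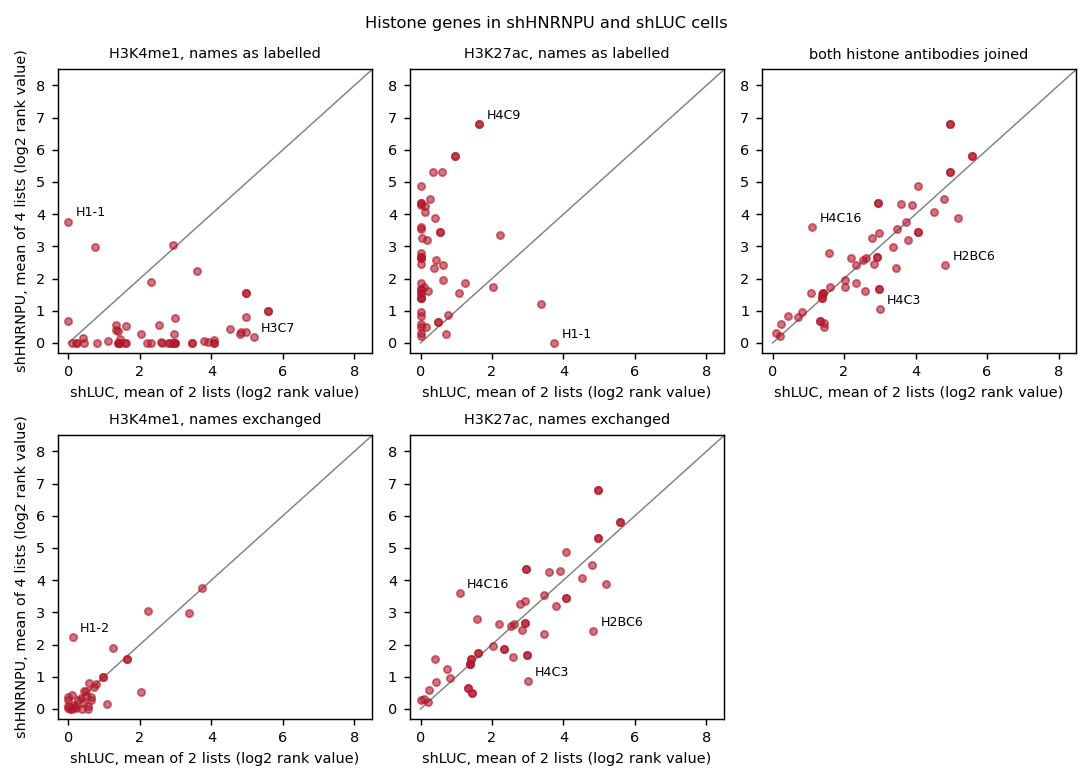
Each point is a histone gene with its mean log2 rank value (−log2 of the share of a list's summits scoring at least as high) in 2 shLUC lists (x axis) and 4 shHNRNPU lists (y axis), with the line of equal values. With the antibody names as labelled the points lie along the axes, and with the names exchanged or both marks joined they lie along the line.

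With the names exchanged, few histone genes had separate groups, and all of these are named, chosen after their values were seen. In H3K27ac, shHNRNPU lists lay above both shLUC lists at 3 of 56 genes (H2BC12, H4C9 and H4C16; 2.05% of all genes) and below both at 5 (H2AC25, H2BC26, H4C3, H2BC6 and H3C7; 11.2% of all genes). In H3K4me1, they lay above at 1 of 35 (H1-2; 6.43% of all genes) and below at 6 (H2BC8, H1-3, H4C6, H2AC14, H2BC14 and H3C11; 7.47%). With both marks joined, 3 of 57 lay above (H2BC12, H4C9 and H4C16; 4.21%) and 3 below (H4C3, H2BC6 and H3C7; 10.4%). These counts use the whole-gene window, in which H2BC12 and H4C9 had the same H3K27ac values. In the start window with the names exchanged, H2BC12 had 93.7, 87.8, 92.5 and 90.5 against 90.9 and 91.0, which overlapped. H4C16 there had 0, 83.3, 94.2 and 97.2 against 33.7 and 67.4, which also overlapped. H4C9 kept its values. In H3K4me1 there, H2BC8 had 0 in the shHNRNPU lists and in both lists titled H3K27ac shLUC. H1-3 had 0, 0, 0 and 33.4 against 56.1 and 0, so neither of these 2 genes was separate. The other genes named with the names exchanged stayed separate in that window. In the whole-gene window H2BC8 had 0 in each H3K4me1 shHNRNPU list against 2.74 and 2.12. H4C16, a gene apart from the clusters, had joined percentiles of 82.4, 83.3, 94.2 and 97.2 in shHNRNPU lists against 33.7 and 67.4 in shLUC lists, a difference of 2.49 ± 0.78 (SE, limma, adjusted p = 0.527; exact permutation p = 0.133). The joined percentiles of H2BC6 were 80.6, 78.1, 71.1 and 89.9 in shHNRNPU lists, beside 98.1 and 93.4 in shLUC lists (-2.42 ± 0.67, SE, limma, adjusted p = 0.508; exact permutation p = 0.0667, the smallest that 4 against 2 libraries allow).

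The median percentile over the histone genes is a description, with no test. With the names exchanged, the H3K27ac median over histone genes was 65.8 ± 13.6 in shHNRNPU lists (SD, n = 4) and 74.4 ± 11.2 in shLUC lists (SD, n = 2), and with both marks joined it was 68.6 ± 14.5 and 78.7 ± 8.41. The medians over all genes differed in the same direction, with a mean of 53.5 in H3K27ac shHNRNPU lists and 66.8 in the lists titled H3K4me1 shLUC. The H3K4me1 median over histone genes was 0 in the 4 shHNRNPU lists and in the 2 lists titled H3K27ac shLUC. For POLIIS2P there was 1 shHNRNPU list and so no test: 20 of 50 histone genes were above both shLUC lists (32.6% of all genes) and 13 were below both (36.6% of all genes).

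Other genes of histone supply were taken from 2 lists. The 18 genes of a list of histone locus body and histone mRNA processing factors, such as NPAT, CASP8AP2 and SLBP, were higher in H3K27ac at 3 and higher in H3K4me1 at 6 in the comparison of the marks within shHNRNPU cells (16.0% and 39.1% of all genes). NPAT had strong summits of both marks (96.8 to 98.5 in H3K4me1 and 96.8 to 98.4 in H3K27ac). CPSF2, a subunit of the complex that cuts histone transcripts, named after its values were seen, had H3K27ac percentiles of at least 99.8 in each list and a single H3K4me1 percentile above 0, of 10.5. Of 11 replication-independent histone variant genes, such as H2AZ1 and H3-3A, 2 were higher in H3K27ac and 3 in H3K4me1. H2AZ2 had H3K27ac percentiles of 66.6, 75.8, 81.5 and 90.3 and none in H3K4me1. With the names exchanged or the marks joined, limma called 0 genes of either list between shHNRNPU and shLUC cells; at an unadjusted p under 0.05 there were 2 of the 18 in H3K4me1, 1 in H3K27ac and 0 joined, and 0 of the variants in each. Of 5 other protein-coding genes that lie inside the cluster spans or overlap them, FCGR1A and LOC124904411 had no summit, and of the 3 tested none was higher in H3K27ac and 2 were higher in H3K4me1.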

How the data were processed

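The values come from 17 CUT&Tag libraries, 1 summit list each, with samples grouped by their titles. Per the labels, the submitters' processing notes name cutadapt, Bowtie2, SAMtools, MACS2, deepTools and the build hg38. Versions, settings, control libraries and the treatment of reads with several matches are not given in the sources used here. The deposited score of each summit is a −log10 p- or q-value, which starts near 2.00 in the histone lists and near 1.30 in the others. It was used as a within-list percentile, which puts all lists on the same scale but does not correct for list length. In the H3K27ac shHNRNPU lists the median over all genes was 31.8 in the shortest (40487 summits) and 68.7 in the longest (85142). The part of list length in this was not tested. The deposited pooled HNRNPU intervals have a score of 0 throughout and were used for position only. Read depth is unknown, and list lengths limit the precision.

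Genes came from RefSeq GRCh38.p14. limma 3.58.1 (R 4.3.3, trend and robust, tested on simulated data) was fitted over all genes with a summit in at least 1 library compared, with no covariate, and the p-values were adjusted by the Benjamini-Hochberg method over all of them. Single genes had a two-sided exact permutation test. The histone genes and the gene lists were chosen with earlier results of these data known. Named genes were the H1 genes, the highest and lowest H3K27ac gene of each cluster, single genes, the repeat genes on chromosome 1, the 3 highest in HNRNPU and in POLIIS2P, and genes called with the strongest differences. Alternatives were a window of 2000 bp, the 20000 highest summits, the start window, merged windows, each shRNA alone, exchanged names, the percentile scale, no filter, left-out libraries and a block for the repeat number. The main fits did not use the repeat number as a pairing, and whether libraries of the same number were handled together is not known. Protein sequences were not used here.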

Additional observations from a re-analysis of the deposited data

Results flagged for a closer look

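The number of histone genes with an H3K27ac summit was 51, 51, 51 and 55 in the 4 shHNRNPU lists, so the second shHNRNPU#2 list stood apart from the others (gap divided by range 1). That list was also the longest of the 4, at 85142 summits, and the part of its length in the count was not tested. The H3K27ac median of the 11 genes near 149.8 Mb on chromosome 1 was 0, 0, 0 and 49.0 (gap divided by range 1), the last value again from the second shHNRNPU#2 list. Of 16 groups of 4 examined, 2 stood apart in this way. Chance gives about 5% of groups only for values without ties, and both of these groups held equal values apart from 1. Gap divided by range is then always 1, so the 5% does not apply to them. The groups also share genes.

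With the antibody names exchanged, the H3K27ac median over the histone genes was below the mean of the shLUC lists in the 2 shHNRNPU#1 lists (differences of -19.6 and -21.0 percentile points), and differed from it by 1.35 and 4.88 in the 2 shHNRNPU#2 lists. The shRNAs therefore differed by 23.4 points, and with both marks joined by 24.8 points, and neither difference was tested. The median over all genes differed from the shLUC mean by -19.3 and -35.1 in the shHNRNPU#1 lists and by -0.673 and 1.86 in the shHNRNPU#2 lists. The shHNRNPU#1 lists held 51655 and 40487 summits and the shHNRNPU#2 lists 75264 and 85142, and the part of list length was not tested.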

How the results depend on the processing

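Exchanging the H3K4me1 and H3K27ac names of the control libraries changed the calls more than any other choice: histone genes called between shHNRNPU and shLUC cells went from 43 to 0 in H3K4me1 and from 27 to 0 in H3K27ac, and stayed at 0 with the exchange under each other setting run (window of 2000 bp, 20000 highest summits, each shRNA alone, repeat number as a block, percentile scale, no filter, each library left out). As titled, with the 20000 highest summits the count was 26 of 45 in H3K4me1, all lower (31.2% of all genes), and 13 of 47 in H3K27ac, all higher (15.1%). With shHNRNPU#2 alone it was 27 in H3K4me1, 26 of them lower (13.1% of all genes) and 1 higher (26.9%). Leaving out 1 library gave 37 to 47 in H3K4me1 and 4 to 28 in H3K27ac, with 4 without either shLUC replicate. The comparison of the marks within shHNRNPU cells, whose alternatives were chosen after seeing the data, gave 44 calls, 42 of them higher in H3K27ac (16.0% of all genes). With the 20000 highest summits it gave 23, all higher in H3K27ac (25.1%), and with shHNRNPU#1 alone 28, 26 of them higher (9.02%). Without 1 library it gave 35 to 46, with 34 to 44 higher in H3K27ac (13.2 to 18.4%) and 1 to 2 higher in H3K4me1 (34.1 to 39.5%). With the repeat number as a replicate block, 42 of 57 histone genes were lower in H3K4me1 (21.7% of all genes) and 2 were higher (31.0%). In H3K27ac, 23 were higher (9.09%) and 1 was lower (30.9%), and 0 were called joined (0.00% in each direction). Between the marks, 43 were higher in H3K27ac (17.1% of all genes) and 2 in H3K4me1 (40.4%). Same-numbered libraries deviated together with correlations of -0.0230 to 0.0384 over 6 pairs of groups titled with the same antibody. Some of these pairs include shLUC lists whose antibody names are in doubt, so the values do not settle whether repeats were paired.

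H1-1 in H3K4me1 with the names exchanged was 0.03 and became -0.56 with shHNRNPU#2 alone and -0.49 to 0.55 without 1 library (-0.13, -0.20 and -0.0134 without shHNRNPU#1 replicate 1, shHNRNPU#1 replicate 2 and shHNRNPU#2 replicate 2). H3C7, at -0.23 with the exchange, ranged from -0.61 to 0.15 without 1 library. The difference in the median percentile over the histone genes (shHNRNPU minus shLUC) was -74.4 in H3K4me1 as titled, -71.6 with 2000 bp, -10.5 with the 20000 highest summits and -82.3 to -66.5 without 1 library. With the exchange it was 0, with each shRNA alone, 20000 summits or without 1 library 0, and with 2000 bp -0.873. In H3K27ac it was 65.8 as titled, 6.52 with 20000 summits and 61.3 to 69.9 without 1 library. With the exchange it was -8.60, with 2000 bp -7.84, with 20000 summits -4.03, with shHNRNPU#1 alone -20.3, with shHNRNPU#2 alone 3.12, and without 1 library -16.5 to -0.674 (-4.91 and -4.47 without an shHNRNPU#1 replicate, -11.9 and -13.1 without an shHNRNPU#2 replicate). In POLIIS2P it went from -4.05 to 3.82 with 2000 bp and ranged from -8.34 to 0.245 without 1 shLUC library. Joined, it was -10.1, with 2.31 under shHNRNPU#2 alone as the one positive value and -22.5 to -4.13 under the other alternatives.

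The share of histone genes with a summit was 42.5% in H3K4me1 with 2000 bp, 1.79% with 20000 summits and 39.4% in merged windows. In H3K27ac it was 70.0% in the start window, 50.7% with 20000 summits and 77.5% in merged windows. In POLIIS2P it was 68.6% with 2000 bp, 51.9% in the start window, 25.7% with 20000 summits and 68.3% in merged windows, and in HNRNPU 39.3% with 20000 summits. Without 1 library the shares were 24.8 to 32.4% (H3K4me1), 72.9 to 74.8% (H3K27ac), 60.7 to 62.9% (POLIIS2P) and 51.4 to 60.0% (HNRNPU). The 20000 highest summits are 9.33 to 57.7% of a list, so this setting removes more summits from H3K4me1 lists. Causes of the other changes were not tested.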
